A study of Mus musculus with 5 samples.

Results

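The fragments described here are pieces of the mouse genome, cut by the restriction enzyme MspI, that were partly methylated in a population of CD8+ T cells. Some of their DNA molecules carried methylated and unmethylated CpGs side by side, and the others were uniform. A CpG is a cytosine followed by a guanine, and a molecule is called mixed where it holds at least 1 methylated and 1 unmethylated CpG. Members had 4 to 19 CpGs, and only molecules with at least 4 called CpGs were used. Every member had at least 10 such molecules in each clone and at least 5 on the odd and on the even lines of the population's table. Members were chosen by their values on the odd lines, where 20 to 80% of the calls were methylated and over 20 up to 60% of the molecules were mixed. The rule found 1892 members among 63936 fragments that met the molecule minimum (2.96%), and among 7152 of these that were intermediate on the odd lines (26.5%). Another 96 intermediate fragments had fewer mixed molecules and 5164 had more.

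The DNA came from C57BL/6 mice. Spleens gave naive T cells that were stimulated with IL2 in culture and then sorted, per the labels, for CD8+ cells, the cytotoxic lymphocytes. The labels name antibodies to CD3 and CD28 at the sorting step and do not say how these select CD8+ cells. The non-clonal population was 1 sample, and clones 1 and 2 had 2 replicates each after 15 cell divisions from 1 founder cell per clone. No genotype other than the strain is given for any group. The replicates of a clone share 1 deposited table, so each clone was analysed as 1 pooled library and no value has a spread between replicates. Each test therefore compares libraries, not conditions, and a clone stands for 1 founder cell. The fragments carry numbers and no coordinates in the tables, so that genes, sequences and the defining markers of CD8+ cells were not analysed here.

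Methyl groups on CpGs are copied to the new strand after DNA replication by the maintenance methyltransferase DNMT1, which acts where the old strand is methylated. De novo methyltransferases can add marks and imperfect copying or TET enzymes can remove them, so the pattern along a molecule records both what was inherited and what changed since. A partly methylated fragment can be made of uniform molecules from cells or alleles in opposite states, or of mixed molecules. A clone starts from the few DNA copies of its founder cell, whereas a population holds the patterns of many cells.

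Molecules are drawn below with ● for a methylated CpG, ○ for an unmethylated CpG and · for a CpG not called, in the order of the CpGs along the fragment. Most molecules lack the CpG at 1 end of the fragment: in clone 1 the last CpG was called on 1.98% of plus-strand and the first on 2.18% of minus-strand molecules of members. Fragment 774496 is shown because each clone carried a nearly fixed state, mixed in clone 1 and methylated in clone 2. The clones shared methylated CpGs at 1 and 2 and differed at the later ones.
Fragment 774496, clone 1, plus strand, 11 molecules: ●●○○·
Fragment 774496, clone 1, minus strand, 11 molecules: ·●○○○
Fragment 774496, clone 2, plus strand, 13 molecules: ●●●●·
Fragment 774496, clone 2, minus strand, 6 molecules: ·●●●●
Fragment 774496, population, plus strand, 3 molecules: ●●●○·
Fragment 774496, population, minus strand, 2 molecules: ·●○○●
These patterns made up all 22 molecules of clone 1 and 19 of 25 in clone 2. In clone 1 the CpGs numbered 1 and 2 were methylated on every called molecule and those numbered 3, 4 and 5 on none. The 8 molecules on the population's even lines carried 5 patterns over both strands.

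Fragments 1539407 and 492055 are shown because the mixing itself differed between the clones. In fragment 1539407 none of 18 molecules of clone 1 was mixed, which allows a share of up to 16.7%, and all 14 of clone 2 were.
Fragment 1539407, clone 1, plus strand, 6 molecules: ●●●·●●·
Fragment 1539407, clone 1, plus strand, 5 molecules: ○○○·○○·
Fragment 1539407, clone 2, plus strand, 8 molecules: ●●○·●●·
Fragment 1539407, clone 2, plus strand, 3 molecules: ○○○·○●·
Clone 1 split into 10 wholly methylated and 8 wholly unmethylated molecules. The CpG numbered 3 was methylated on 10 of 17 calls in clone 1 and on 0 of 14 in clone 2. Fragment 492055 had only unmethylated calls in clone 1 (12 molecules), while in clone 2 the CpGs numbered 2 and 3 were methylated on 17 of 17 molecules and the one numbered 4 on 0 of 17.
Fragment 492055, clone 1, plus strand, 4 molecules: ○○○○○○·
Fragment 492055, clone 1, minus strand, 3 molecules: ·○○○·○○
Fragment 492055, clone 2, minus strand, 6 molecules: ·●●○·○○
Fragment 492055, clone 2, plus strand, 2 molecules: ○●●○○○·
Fragment 492055, population, minus strand, 2 molecules: ·○○○·○○
The same minus-strand pattern with methylated CpGs at 2 and 3 was also carried by 2 of the 9 even-line molecules of the population, beside the unmethylated one.

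**Figure D1:**
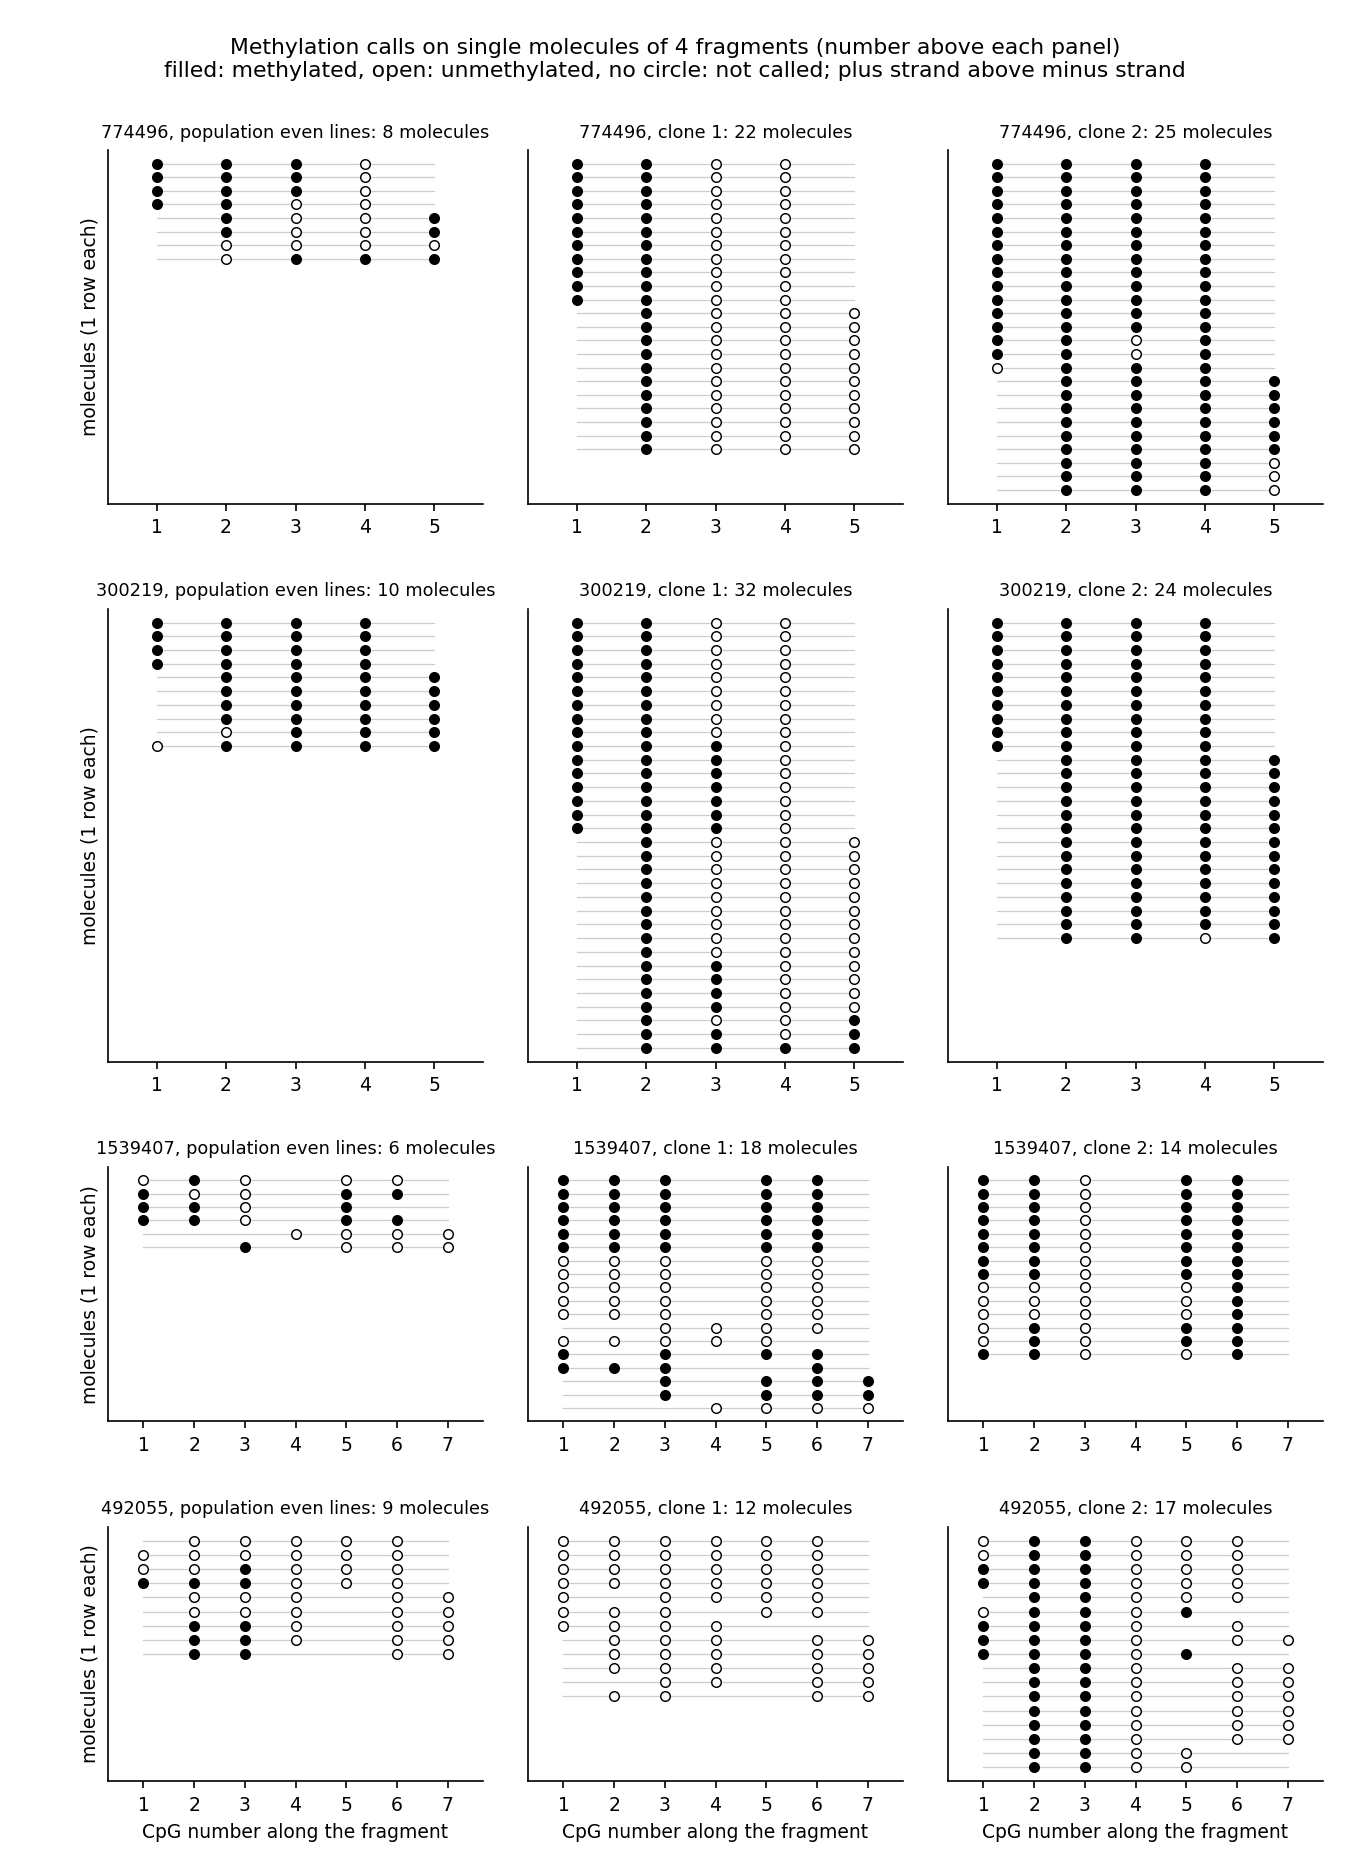
Called CpGs on single molecules of fragments 774496, 300219, 1539407 and 492055, with 1 row per molecule, the CpG number along the fragment on the horizontal axis, and a panel for the population's even lines, clone 1 and clone 2. Filled circles are methylated and open circles unmethylated; in fragment 774496 all 22 molecules of clone 1 show the same split between the first and the later CpGs, and in fragment 1539407 the 18 molecules of clone 1 are uniform while the 14 of clone 2 are mixed.

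The 3 libraries listed 8463942 (population), 11969176 (clone 1) and 8977287 (clone 2) molecules. Those usable here, with 4 or more calls on fragments of 4 to 19 CpGs, numbered 1982532, 2532814 and 2111732. A member had a median of 10 molecules on the even lines, 26 in clone 1 and 21 in clone 2, and members together held 20133, 52961 and 46384 molecules. The population entered with its even lines alone, so its values are the least precise. Members had a median of 6 CpGs against 8 over all eligible fragments. Those with 10 or more CpGs made up 19.5% of members and 34.9% of eligible fragments.

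Members were more methylated in both clones than in the population. The mean level, the share of methylated calls, was 53.5% on the even lines, 59.95% in clone 1 and 60.3% in clone 2. The interquartile range over members was 31.5 to 76.7% on the even lines, 39.3 to 83.8% for clone 1 and 39.1 to 84.2% for clone 2. On the even lines 1299 members (68.7%) again lay at 20 to 80%, against 1154 (61.0%) in clone 1 and 1135 (59.99%) in clone 2. The rule required 20 to 80% on the population's own odd lines, which favours the even lines in this share. Over 80% stood 375, 583 and 588 members, and under 20% stood 218, 155 and 169. The clones therefore held more members at the methylated end and fewer at the unmethylated end than the even lines did. Over all 63936 eligible fragments the mean levels were 52.1, 53.3 and 53.8%. In the intermediate fragments with more mixed molecules they were 53.5, 59.6 and 60.8%, and in those with fewer 54.2, 61.8 and 57.3%. Higher levels in the clones were thus not particular to the members.

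Of the members, 849 (44.9%) were at 20 to 80% in both clones, 371 were over 80% in both and 67 under 20% in both. Just 14 were in opposite outer classes, 9 of them high in clone 1 and low in clone 2 and 5 the reverse. The remaining 591 were intermediate in 1 clone and in an outer class in the other. Across the 1892 members the level of clone 1 followed that of clone 2 with Pearson's r = 0.678 and Spearman's rho = 0.679, while the odd and even lines of the population gave 0.842 and 0.834. These correlations are across fragments, which are not independent replicates, and the deeper clone libraries have less counting error than the population lines.

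**Figure D2:**
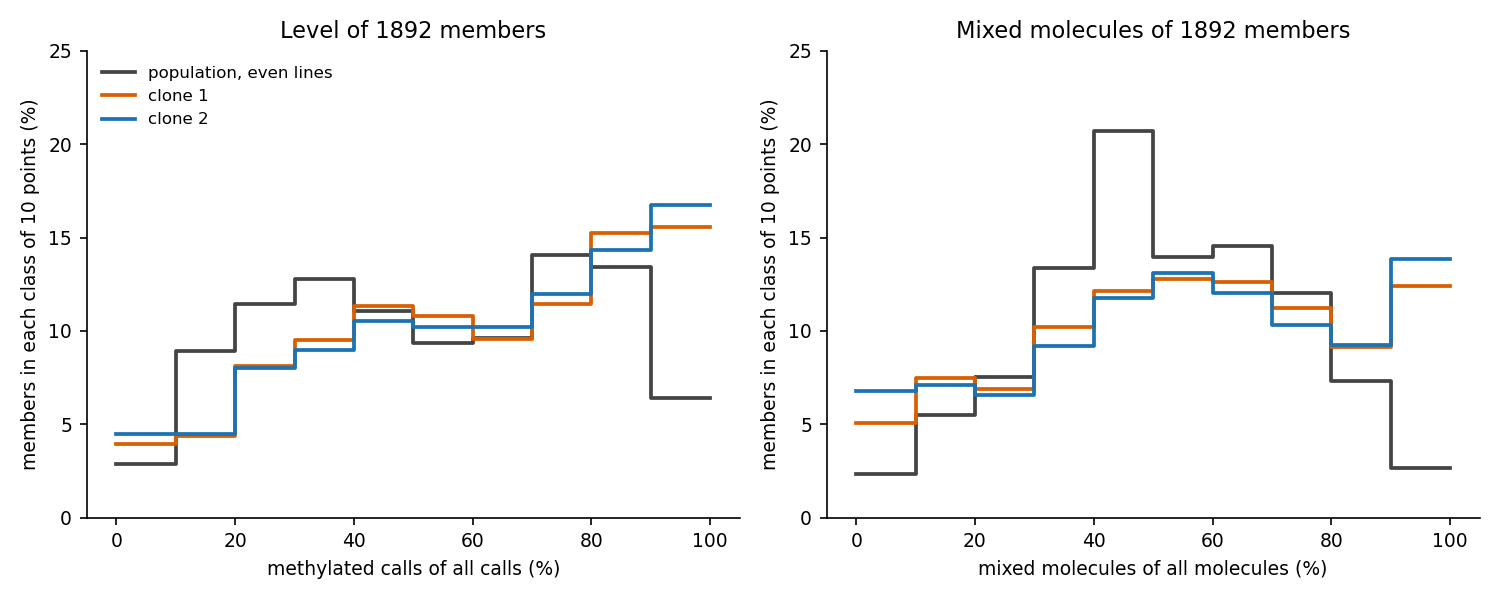
Share of the 1892 members in each class of 10 percentage points, by the level (left) and by the share of mixed molecules (right), in the population's even lines, clone 1 and clone 2. Both clones have more members than the population in the highest level class and in both outer classes of the mixed share.

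Mixed molecules made up a mean of 53.1% per member on the even lines, 55.8% in clone 1 and 56.3% in clone 2. The value on the odd lines, which chose the members, was 48.7%. Wholly methylated molecules accounted for 24.4% on the even lines, 27.9% in clone 1 and 28.1% in clone 2, and wholly unmethylated ones for 22.5, 16.3 and 15.6%. The difference in level between the population and the clones was thus accompanied by fewer wholly unmethylated molecules rather than by fewer mixed ones. Although the means were close, single members spread further apart in the clones. At most 20% of the molecules were mixed in 148 members on the even lines, 238 in clone 1 and 263 in clone 2, and over 80% were mixed in 189, 408 and 437. The rule held the mixed share within a band on the population's odd lines, which favours a narrower spread on its even lines than in the clones. Members also had few molecules on the even lines. The parts of the rule and of depth in this spread were not tested. Members with over 80% mixed molecules in both clones numbered 154, those with at most 20% in both 75, and those in opposite classes 55.

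Between clone 1 and clone 2 the share of mixed molecules had r = 0.300 across members (rho = 0.295). Members were chosen within a band of that share on the odd lines, which limits such a correlation, so it was not ranked against that of the level.

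Whether the descendants of different founder cells differed at these fragments was tested at each of the 63936 eligible fragments with Fisher's exact test (two-sided, on molecules), and p-values were adjusted over all of them by Benjamini and Hochberg's method. A molecule counted as methylated when over 50% of its called CpGs were, and members were called where the adjusted p lay below 0.05 and the libraries were 20 or more points apart. Level calls thus compare the share of methylated molecules and not the share of methylated calls given above. Clone 1 was called higher than clone 2 at 150 members (7.93%) and lower at 143 (7.56%), against 1.14% and 1.32% of all eligible fragments. The 293 called members (15.5%, Wilson 95% interval 13.9 to 17.2) had a median absolute difference of 55.6 points. The mean difference in the share of methylated molecules over all members was -0.23 points (clone 1 minus clone 2). Which direction had more calls turned in 6 of 17 alternatives. The calls also rest in part on molecules with exactly 50% of their calls methylated, which count here as unmethylated. With these counted as methylated 234 members were called, 186 of them among the 293 with the same direction, and with these left out 239, of which 216 were shared. All-or-none and mostly mixed intermediate fragments were called at 13.5% (8.09 to 21.8) and 15.6% (14.7 to 16.7), with intervals that overlap that of the members.

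The share of mixed molecules was called at more members than the level. It was higher in clone 1 at 204 members (10.8%) and lower at 218 (11.5%), against 5.38% and 5.26% of all eligible fragments. These 422 members (22.3%, Wilson 95% interval 20.5 to 24.2) differed by a median of 51.1 points. Of the mostly mixed fragments 18.5% (17.5 to 19.6) were called, and of the all-or-none ones 9.38% (5.01 to 16.9). The differences between these classes were not tested. Both tests called 113 members (5.97%, against 0.89% of all eligible fragments), which is 38.6% of the level calls and 26.8% of the mixed-share calls. Over all eligible fragments, 569 were called by both tests, 1004 for level alone and 6234 for mixing alone. The overlap of level and mixing calls is therefore not read as particular to the members. Another 309 members (16.3%) were called for mixing and not for level, and 180 (9.51%) for level and not for mixing, against 9.75% and 1.57% of all eligible fragments. A member not called for level can still differ in its share of methylated calls, which was not tested. In at least 1 test 602 members (31.8%) were called, against 12.2% of all eligible fragments. The number of calls followed the depth. With each library drawn down to 10 molecules, 0.846% of members were called for level and 1.43% for mixing, and with mixed molecules defined by at least 2 CpGs of each state 14.8% were called for mixing.

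**Figure D3:**
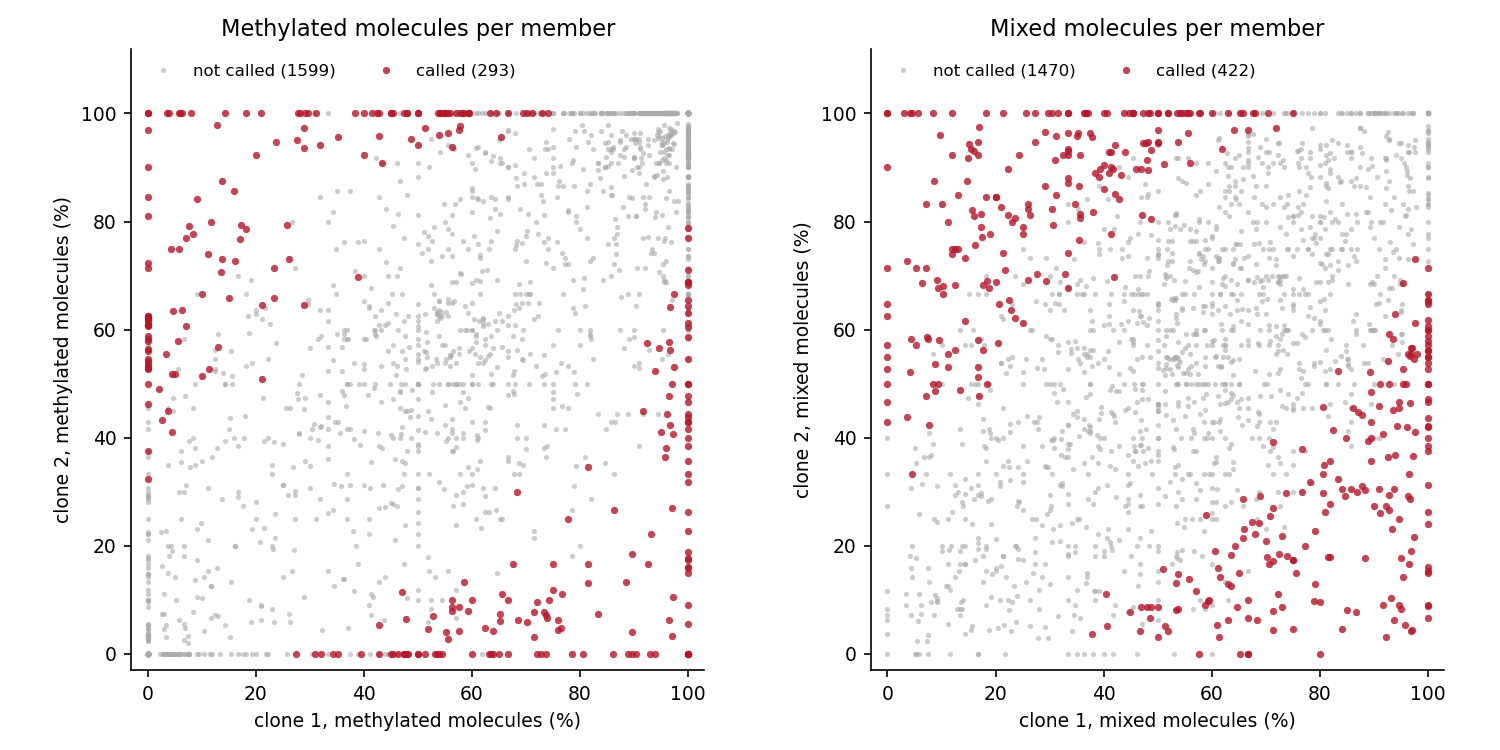
Clone 1 against clone 2 for each of 1892 members, as the share of methylated molecules (left, 293 members called) and of mixed molecules (right, 422 called). Called members (red) lie near the edges in the left panel, often with 1 clone at 0 or 100% and the other intermediate, and members that are not called are grey.

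The widest level differences were complete. In fragment 496196, which has 18 CpGs, methylated molecules were 26 of 26 for clone 1, 0 of 28 for clone 2 (a 0 allows up to 10.7%) and 5 of 8 for the even lines (Fisher's exact test between clones, adjusted p = 2.13e-12). Its molecules were nevertheless mostly mixed in both clones, 25 of 26 and 25 of 28. A high molecule of clone 1 and a low molecule of clone 2 are shown because each state carried its own exceptions.
Fragment 496196, clone 1, plus strand, 3 molecules: ●●●●●●●○●●●○●●●●●·
Fragment 496196, clone 1, minus strand, 2 molecules: ·●●●●●●○●●●○●●●●●●
Fragment 496196, clone 2, minus strand, 5 molecules: ·●○○○○○○○○○○○○○○○○
Fragment 496196, clone 2, plus strand, 4 molecules: ○●○○○○○○○○○○○○○○○·
In clone 1 the unmethylated CpGs at 8 and 12 recurred on both strands, and in clone 2 the methylated CpG at 2 did. Other molecules of clone 1 were unmethylated at the CpGs numbered 4, 6 and 7. These were methylated on 57.7, 62.5 and 60% of calls, against 60% at the CpG numbered 8. In clone 2 the CpG numbered 6 was methylated on 10 of 25 calls, against 13 of 25 at the one numbered 2.

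All 19 molecules of clone 1 were methylated in fragment 1002276, 18 of them wholly, while clone 2 had 0 of 14 (Fisher's exact test, adjusted p = 6.02e-07). On the even lines 2 of 11 were methylated. Fragment 1470055 had 27 of 27 in clone 1, 0 of 10 in clone 2 and 0 of 9 in the population (adjusted p = 1.25e-06 between clones and 5.66e-05 for clone 1 against the population, Fisher's exact test). Its odd lines, used to choose it, had 6 of 9 methylated molecules, so both parts of the population table differed there.

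In the other direction, fragment 436010 had 0 of 32 methylated molecules in clone 1 (a 0 allows up to 9.38%), 31 of 32 in clone 2 and 12 of 18 in the population (adjusted p = 2.09e-13 between clones, Fisher's exact test). In the same exact test clone 1 was also below the population (adjusted p = 0.000315), and clone 2 was not called against it (adjusted p = 0.467). Fragment 428176 had 0 of 28 in clone 1, 16 of 16 in clone 2 and 2 of 9 in the population. The commonest pattern of clone 1 on the plus strand, ●○○○· on 12 molecules, was methylated at its first CpG alone. Fragment 554059, with 15 CpGs, had 1 of 28 in clone 1, 22 of 22 in clone 2 and 8 of 12 in the population. No pattern was carried there by more than 2 molecules of clone 1, unlike at fragments 436010 and 428176.

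The widest differences in mixing were found in fragments with 5 or 7 CpGs. In fragment 300219, with 5 CpGs, 31 of 32 molecules of clone 1 were mixed, 1 of 24 of clone 2 and 2 of 10 of the population (adjusted p = 1.47e-10 between clones, Fisher's exact test). Clone 1 held ●●○○· on 9 plus-strand and ·●○○○ on 9 minus-strand molecules, while clone 2 held ●●●●· on 10 and ·●●●● on 13. In fragment 1015710, 13 of 13 molecules of clone 1 and 9 of 10 of the population were mixed, against 1 of 15 for clone 2 (exact test, adjusted p = 5.1e-05). The level of this fragment was not called between the clones (exact test, adjusted p = 1), as 10 of 13 and 15 of 15 molecules were methylated. Methylated calls at fragment 1015710 made up 69.2% in clone 1 and 98.3% in clone 2. Fragments 1539407 and 492055, drawn above, had adjusted p = 3.95e-07 and 2.55e-06 for mixing in the exact test and were not called for level. At fragment 1539407 methylated calls made up 54.8% in clone 1 and 62.9% in clone 2. At fragment 492055 they made up 0% in clone 1 and 46.6% in clone 2, a difference that the level test on molecules did not call.

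Against the population, calls were fewer and more often towards methylation. Clone 1 was called higher at 50 members (2.64%) and lower at 13 (0.687%), against 0.33% and 0.1% of all eligible fragments. Clone 2 was called higher at 35 members (1.85%) and lower at 8 (0.423%), against 0.246% and 0.061%. In the share of methylated molecules, the mean difference over all members was 7.46 points for clone 1 and 7.70 for clone 2. Both comparisons use the same even lines of the population. With a median of 10 molecules there, only wide differences could be called: the called members had median differences of 71.9 and 66.8 points. An unadjusted p under 0.05 was found at 407 (21.5%) and 439 members (23.2%), against 3.43 and 3.38% of all eligible fragments, and at 10 molecules per library none passed Fisher's exact test after adjustment.

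The share of mixed molecules was higher than in the population at 49 members and lower at 30 for clone 1, against 0.956% and 0.335% of all eligible fragments. For clone 2 it was higher at 37 members and lower at 18, against 0.821% and 0.277%. As shares of the members these counts are 2.59, 1.59, 1.96 and 0.951%.

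Fragment 984173 was higher in both clones, with 23 of 23 methylated molecules in clone 1, 11 of 11 in clone 2 and 0 of 6 on the even lines (adjusted p = 0.0024 and 0.0344, Fisher's exact test). Fragment 30286 was lower in clone 1, with 2 of 14 methylated molecules against 9 of 9 on the even lines and 15 of 15 for clone 2 (exact test against the population, adjusted p = 0.023). This call rests on 8 molecules of clone 1 with exactly 50% methylated calls: with these counted as methylated, clone 1 had 10 of 14 (exact test, adjusted p = 1). Methylated calls made up 44.6% in clone 1 and 86.1% on the even lines. Its commonest pattern in clone 1 was ●○○●· on 6 molecules, and in clone 2 ●●●●· on 10. Fragment 771023 was lower in clone 2, with 2 of 20 against 8 of 8 (exact test, adjusted p = 0.0139). Clone 2 held ○○●●· on 9 plus-strand and ·○●●○ on 9 minus-strand molecules there, so its 20 molecules were all mixed. Those 18 molecules were methylated at exactly 50% of their calls, and counted as methylated they give 20 of 20 against 8 of 8, so the call is lost (exact test, adjusted p = 1). Methylated calls made up 52.5% in clone 2 and 84.4% on the even lines. Fragment 1451265 was also lower in clone 2, with 2 of 22 methylated molecules against 11 of 12 on the even lines (exact test, adjusted p = 0.00481). With 6 evenly divided molecules counted as methylated, clone 2 had 8 of 22 and was not called (exact test, adjusted p = 0.314). Clone 1 lay between them with 18 of 44 and was called against neither. Its plus strand carried ●●●●· on 9 molecules and ●○○○· on 6, the minus strand ·○○○○ on 7 and ·●●●● on 5, so that methylated and unmethylated patterns stood side by side in 1 clone. The odd lines, used to choose members, had 0 of 5 methylated molecules at fragment 984173 and 8 of 11 at fragment 30286. They had 5 of 10 at fragment 771023 and 8 of 13 at fragment 1451265.

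Fragment 114535, with 11 CpGs, was lower in clone 1, with 4 of 29 methylated molecules against 11 of 11 on the even lines and 28 of 32 for clone 2 (exact test, adjusted p = 0.000897 against the population and 1.76e-06 between clones). Fragment 127622 was higher in clone 2, with 11 of 12 against 0 of 8 on the even lines (exact test, adjusted p = 0.0322). Clone 1 had 11 of 26 there and was not called for level. Its mixed molecules were 2 of 8 on the even lines, 24 of 26 in clone 1 and 11 of 12 in clone 2. The odd lines had 7 of 10 methylated molecules at fragment 114535 and 1 of 9 at fragment 127622.

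Fragment 903970 had fewer mixed molecules in both clones. All 8 even-line molecules were mixed and each differed from the others, while clone 1 had 2 mixed molecules of 23 and clone 2 had 5 of 20 (Fisher's exact test, adjusted p = 0.00294 and 0.0418). Fragment 1409075 had 6 of 6 mixed molecules on the even lines and 1 of 16 in clone 2 (exact test, adjusted p = 0.0173), where 9 molecules were wholly methylated and 6 wholly unmethylated. Clone 1 kept 13 of 19 mixed there. Fragment 1073697 was the reverse, with 0 of 5 mixed on the even lines and 24 of 25 in clone 1 (exact test, adjusted p = 0.0102). A 0 of 5 allows a share of up to 60%. The 25 molecules of clone 1 carried 14 patterns and the 32 of clone 2 carried 18, so these clones did not hold a few fixed patterns at every member. The odd lines, used to choose members, had 3 of 9 mixed molecules at fragment 903970. They had 3 of 6 at fragment 1409075 and 3 of 6 at fragment 1073697. These fragments were picked for wide differences from the even lines, whose extremes the odd lines did not share.

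At the members, the molecules of a clone were more alike than those of the population. The chance that 2 molecules of a library differ over 4 successive CpGs, taken over pairs so that it does not depend on depth, averaged 70.5% on the even lines, 55.1% in clone 1 and 54.8% in clone 2 at 1534 members. The mostly mixed intermediate fragments gave 76.2, 57.5 and 57.6%. At 453 members drawn down to 10 molecules in each library, the mean number of distinct patterns was 4.72, 3.22 and 3.32. The 2 commonest patterns then held 70.4% of the molecules on the even lines, 85.3% in clone 1 and 84.1% in clone 2. They held all 10 molecules at 28, 146 and 139 members. Conversely 251, 67 and 87 members had 5 or more patterns. The rule required an intermediate level and some mixed molecules on the population's odd lines and not in the clones. It thereby favours more varied patterns in the population, so these values describe the members. The mostly mixed fragments passed the same level limits on the odd lines. The part of the rule in this difference was not tested.

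A single pattern covered over 50% of the 10 molecules at 173 members on the even lines, 246 in clone 1 and 264 in clone 2. In the population this commonest pattern was wholly unmethylated at 107, wholly methylated at 65 and mixed at 1. In the clones it was mixed at 63 and 73 members, which is 25.6 and 27.7% of such members. A mixed pattern as the prevailing one was thus found almost only in the clones among these 453 members. The rule capped the share of mixed molecules on the population's odd lines and not in the clones. It thereby disfavours a prevailing mixed pattern in the population alone, so these counts describe the members. The difference and the part of the rule in it were not tested. Both clones had a prevailing pattern at 151 members, the same one at 85 and different ones at 66. Where it was mixed in both clones, at 13 members, the pattern was the same at 4 and different at 9. At 31 members 1 clone prevailed in a mixed pattern and the other in the wholly methylated one, and at 18 in a mixed and the wholly unmethylated one.

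**Figure D4:**
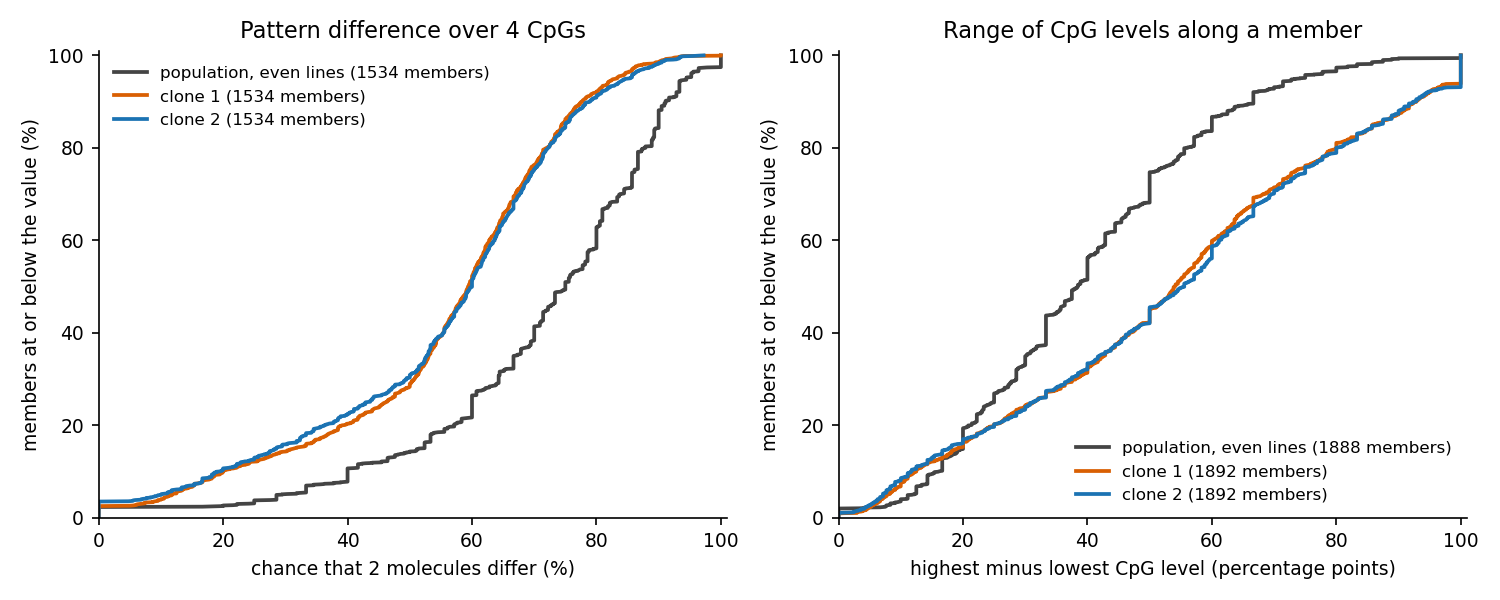
Cumulative share of members by the chance that 2 molecules differ over 4 CpGs (left, 1534 members) and by the range of CpG levels along the member (right, 1888 members for the population and 1892 for the clones). In the left panel both clones lie to the left of the population (means of 55.1 and 54.8% against 70.5%), and in the right panel they lie to its right above 20 points.

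Single CpGs within a member were further apart in the clones. The range, the highest minus the lowest CpG level along a member, had a median of 38.5 points on the even lines, 54.0 in clone 1 and 55.6 in clone 2. It reached at least 80 points at 66 members on the even lines (3.49%), 383 in clone 1 (20.2%) and 400 in clone 2 (21.1%). To set equal depth beside this, 4379 CpGs of members were compared at 10 calls in each library. There, 11.5% of CpGs had 0 or 1 methylated call on the even lines, 17.5% in clone 1 and 18.1% in clone 2, and 9 or 10 were found at 13.8, 29.3 and 30.97%. The middle class, 4 to 6 methylated calls, fell from 33.7 to 26.9 and 25.9%.

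Of 885 members with at least 3 such CpGs, both an almost unmethylated and an almost fully methylated CpG were found in 5 on the even lines, 106 for clone 1 and 98 for clone 2. As shares these are 0.565% (Wilson 95% interval 0.242 to 1.32), 11.98% (10.0 to 14.3) and 11.1% (9.17 to 13.3). All CpGs stood at the same extreme in 43, 118 and 146 members. At least 1 CpG with 4 to 6 methylated calls was found in 600, 537 and 510 of the 885 members. The rule capped mixed molecules at 60% on the population's odd lines and not in the clones. It thereby disfavours CpGs at opposite extremes in the population alone, so the CpG ranges and these counts describe the members. In the mostly mixed intermediate fragments, which lie above that cap, the median ranges were 53.3, 70 and 71.4 points.

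Among members with at least 20 molecules in each clone and 10 on the even lines, the 3 with the widest and the 3 with the narrowest range on the odd lines are given in all libraries not used to pick them. Of the widest, fragment 211269 ranged over 42.9 points on the even lines, 100 in clone 1 and 88.9 in clone 2, and its 28 molecules in each clone carried 14 and 20 patterns. Fragment 1252640 ranged over 66.7, 78.6 and 83.3 points. Its commonest patterns in the clones differed in which CpGs were called, so this range compares CpGs read in part on different molecules. Fragment 754272 ranged over 46.7, 78.0 and 100 points, and 41 of 49 molecules of clone 1 and 41 of 47 of clone 2 were mixed, whereas methylated molecules were 1 of 49 and 23 of 47 (exact test, adjusted p = 9.22e-06). Of the narrowest, fragment 1097242 ranged over 33.0, 57.1 and 85.7 points, fragment 1069523 over 20.0, 44.4 and 40.9, and fragment 592442 over 25, 20 and 50. The 3 widest members were above the 3 narrowest ones in each of these libraries except clone 2, where fragment 1097242 (85.7) exceeded fragment 1252640 (83.3).

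Mixed molecules were set beside the number that the CpG levels alone would give. If each CpG of a member were drawn independently at its own level, 75.3% of molecules would be mixed on the even lines, 71.3% in clone 1 and 70.2% in clone 2. The observed means were 53.1, 55.8 and 56.3%, and they were below the independent value at 1586, 1371 and 1320 members. The gap came to 22.2, 15.5 and 13.9 points. Members were chosen at an intermediate level with at most 60% mixed molecules, a rule that favours such a gap, so it is a description of the members. Mixed molecules themselves looked alike in the 3 libraries. A single change from methylated to unmethylated or back along the molecule was seen in 35.7% of 10577 mixed molecules on the even lines, 35.7% of 29130 in clone 1 and 34.8% of 25524 in clone 2. Exactly 1 CpG differed from all others in 56.7, 55.7 and 54.2%. That CpG was more often an unmethylated one among methylated (34.4, 37.9 and 36.8%) than the reverse (22.3, 17.8 and 17.4%). Counting a molecule as mixed only with at least 2 CpGs of each state, the mean mixed shares of the members were 22.9, 24.7 and 25.4%.

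The strands of a fragment were counted as separate molecules and give a repeat measurement within a library, on the CpGs both strands read. At 637 members with at least 10 molecules per strand, the share of mixed molecules on the plus strand followed that on the minus strand with r = 0.851 in clone 1 and 0.848 in clone 2. Between the clones, r was 0.270 for plus and 0.249 for minus strands. The strands of a clone differed by at least 30 points at 39 and 41 members, and the clones differed by as much at 240 (plus) and 258 (minus). For the level, r was 0.929 and 0.936 between strands and 0.655 and 0.658 between clones. The correlations are across members and carry no test. Strands of a clone share a library and its founder cell, so this repeat does not replace a replicate. A plus-strand and a minus-strand molecule can also come from the same double-stranded piece of DNA, which was not examined. The exact tests counted such molecules separately.

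**Figure D5:**
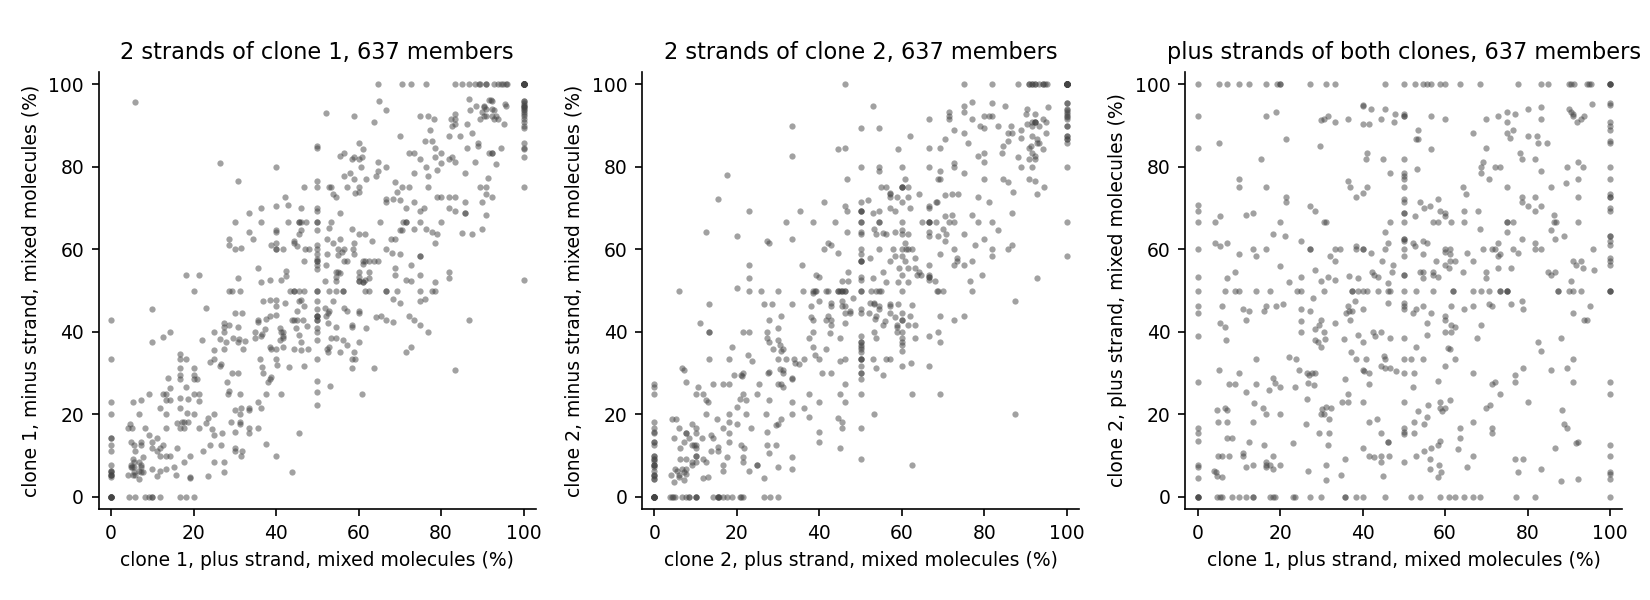
Share of mixed molecules at 637 members, plus strand against minus strand in clone 1 (left) and clone 2 (middle), and plus strands of clone 1 against clone 2 (right), with 1 point per member. Points follow the diagonal within a clone (r = 0.851 and 0.848) and scatter over the whole panel between clones (r = 0.270).

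Members with few CpGs were more methylated. Those with 4 or 5 CpGs (600 members) had mean levels of 60.8% on the even lines, 65.4% in clone 1 and 66.5% in clone 2, and those with 15 to 19 CpGs (109 members) had 40.6, 46.0 and 44.8%. In each of the 5 classes of CpG number the clones were above the population. The share of mixed molecules changed less, from 52.6 to 52.5% on the even lines, 53.9 to 57.5% in clone 1 and 54.2 to 56.9% in clone 2 between the same classes. Mixed-share calls between the clones covered 23.8% of members with 4 or 5 CpGs, 25.7% with 6, 24.4% with 7 to 9, 14.6% with 10 to 14 and 10.1% with 15 to 19. Over all eligible fragments of these classes they covered 13.7, 12.9, 11.5, 8.14 and 5.42%, so the classes with most CpGs had fewer calls there too. Level calls were at 17.8% of members with 4 or 5 CpGs and 12.8% of those with 15 to 19, against 4.37 and 0.944% of eligible fragments.

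Members tended to lie next to other intermediate fragments. Fragment numbers that follow each other are taken here as neighbours, as the tables give no coordinates. Of 433 eligible neighbours of members, 122 (28.2%) were members and 127 (29.3%) mostly mixed intermediate fragments, against 2.96 and 8.08% of all eligible fragments. A dense run between numbers 1389100 and 1389165 held 29 members among 34 eligible fragments. Without it, 100 of 404 neighbours (24.8%) were members. Of 61 pairs of members with successive numbers, 28 had level differences between the clones of the same sign and 33 of opposite sign, with r = 0.188 for the level difference and 0.357 for the mixed-share difference.

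The dense run also held the 6 members with the most molecules. Its members had medians of 48 molecules on the even lines, 115 in clone 1 and 124 in clone 2, and at most 76 tags were found on any strand of a fragment, so that separate molecules there may share a tag. Their median mixed shares were 40.4, 34.3 and 40.5%, and their mean pattern difference was 64.5% on the even lines, 61.5% in clone 1 and 66.5% in clone 2 (28 members). The lower diversity of the clones seen over all members was thus not seen in clone 2 for the run. Fragment 1389111, with 18 CpGs, had 30 of 72 methylated molecules on the even lines, 34 of 146 in clone 1 and 29 of 150 in clone 2, and 39, 75 and 73 of these molecules were mixed. The level was called between the clones at 5 and the mixed share at 2 of the 29 members. Over all members these calls covered 15.5 and 22.3%. Of all eligible fragments, the level was called higher in clone 1 at 1.14% and lower at 1.32%. The mixed share was called higher there at 5.38% and lower at 5.26%. With so few members in the run, these shares were not compared by a test.

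Molecules of a strand are told apart by tags of 6 bases. Pairs of molecules with at least 4 shared calls were compared on strands of members with at most 60 molecules, using all lines of the population. No such pair had tags that differed by 1 base alone. Pairs whose tags differed by 2 bases carried identical calls in 23.4% of 30965 cases in the population, 38.9% of 53952 in clone 1 and 39.3% of 42162 in clone 2. Pairs whose tags differed at all 6 bases did so in 23.7, 38.7 and 38.9%, so similar and dissimilar tags gave shares within 1 point of each other.

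The values just inside and outside the rule are given with no test. The 846 members with over 50 up to 60% mixed molecules on the odd lines had 57.6% on the even lines, 58.4% in clone 1 and 59.8% in clone 2. The 1224 intermediate fragments just above, at over 60 up to 70%, had 62.5, 64.2 and 64.5%. At the lower edge, the 128 members with over 20 up to 30% had 39.9, 44.9 and 47.9%, and the 73 fragments with over 10 up to 20% had 38.4, 41.1 and 39.8%. The 505 members at 75 to 80% methylated calls on the odd lines stood at 81.0% on the even lines, 83.4% in clone 1 and 83.7% in clone 2, and the 1210 fragments at over 80 up to 85% at 86.2, 86.3 and 87.6%. The 298 members at 20 to 25% stood at 24.7, 33.4 and 33.7%, and the 505 fragments at 15 to under 20% at 18.4, 24.6 and 25.6%.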

How the data were processed

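The members, the named fragments and the tests were chosen with earlier results of these data known. Per the labels' protocols, genomic DNA cut with MspI received molecular tags from a plasmid library and was then bisulfite converted, amplified and size selected. Bismark and mm9 appear in the submitters' processing notes. Versions, filters and the pooling of replicates are not given in the sources. The deposited tables have no header and list per line a fragment number, strand, tag, string of CpG calls, a read count and another whole number that was not used. The deposited counts are reads per tag and are not normalized. Each tag on a strand counted as 1 molecule, and a molecule with 1 read was kept. Totals were 17003711 reads for the population, 16036644 for clone 1 and 15027960 for clone 2.

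Tests were two-sided Fisher's exact tests with Benjamini-Hochberg adjustment over 63936 fragments, written with NumPy 2.4.6 and numba 0.67.0. They were also run on simulated data with planted differences, where molecules were drawn independently. The share of planted differences that was called is not reported here. Intervals are Wilson intervals at 95% and, like the limit of 3 counts for a 0, cover counting error only. CpG ranges needed 5 calls per CpG, and pattern windows 5 molecules per library. Named fragments were the called members with the widest difference (4 per direction for the level between clones, 2 for each other test), the 6 deepest members, and the 3 with the widest and the 3 with the narrowest range of CpG levels on the odd lines. Alternatives were other molecule filters, 1 strand per fragment, swapped population lines, other rule limits, CpG-number classes, thinning to 10 molecules, a threshold of 30 points and other treatments of evenly divided molecules. Sequences and genes of the fragments were not analysed here.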

Additional observations from a re-analysis of the deposited data

Results flagged for a closer look

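With each clone as 1 library, the direct comparison of clone 1 with clone 2 showed 15.5% of members with a different level and 22.3% with a different share of mixed molecules, by Fisher's exact test on molecules with Benjamini-Hochberg adjustment. Of all eligible fragments, clone 1 was called higher in level at 1.14% and lower at 1.32%. Its share of mixed molecules was called higher at 5.38% and lower at 5.26%. Fragments 496196, 1470055, 1002276 and 209844 differed by 100 points in the share of methylated molecules (clone 1 minus clone 2). The differences were -100 points at fragments 774496 and 428176, -96.9 at fragment 436010 and -96.4 at fragment 554059. At fragment 774496, 11 of the 22 molecules of clone 1 were methylated at exactly 50% of their calls. Counted as methylated, they give 11 of 22 against 25 of 25 (-50 points, exact test, adjusted p = 0.00363), and methylated calls made up 37.5% in clone 1 and 94% in clone 2. In the share of mixed molecules, clone 1 minus clone 2 was 93.3 points at fragment 1015710 and 92.7 at fragment 300219, and -100 at fragments 1539407 and 492055. The tests compare pooled libraries from 1 founder cell each, with no replicate spread.

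Fragment 209844 had 16 of 16 methylated molecules in clone 1 and 0 of 11 in clone 2, all of the latter on the minus strand, with ··○○○●○● on 4 of them. Its level in the population was 4 of 9. Fragment 1252640, among the members with the widest range of CpG levels on the odd lines, had 2 patterns that differed in which CpGs were called at all: ●●●●···●· on 14 molecules of clone 1 and 9 of clone 2, and ●●○·●●○●· on 8 and 7. Fragment 592442, among those with the narrowest range, had 1 of 13 methylated molecules on the even lines, 35 of 35 in clone 1 and 18 of 22 in clone 2.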

How the results depend on the processing

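No paired analysis was possible because the replicates of a clone share 1 deposited table, and for the same reason no replicate could be left out. Clones minus population stayed negative for the pattern difference and the members at 20 to 80%, and positive for the mean mixed share and the CpG range, under every alternative run. The rule was set on the population alone in each of them, so these directions describe the members. The order of the clones did turn. Higher against lower calls between clones turned for the level in 6 of 17 alternatives and for the mixed share in 2 of 15. Clone 1 against clone 2 turned in 4 of 13 for the mean mixed share, 4 of 13 for the single-switch share, 3 of 13 for the members at 20 to 80%, 2 of 14 for the pattern difference and 2 of 14 for the CpG range. Against the population, lower calls outnumbered higher ones in 1 of 15 alternatives for the mixed share of clone 2 (1 against 0, molecules with 2 or more reads). The filter on molecules with every CpG called left 2 members and gave no value. Leaving out the run of members, or fragments over 50 molecules in a clone, was added after seeing the data and left every value close to the one reported, as did swapping the population lines except for the share of members at 20 to 80% in the population (71.7%). Lists below give the population's even lines, clone 1 and clone 2 in that order. Calls are in percent of members, for clone 1 against clone 2, clone 1 against the population and clone 2 against the population. With molecules of 2 or more reads (273 members), level calls were 4.03, 0 and 0.733%, mixed-share calls were 8.06, 0 and 0.366%, and members at 20 to 80% were 56.4% (clone 1). There, single-switch shares were 30.9, 30.7 and 32.5%, and CpG ranges were 34.8, 50 and 52.9 points. With 1 strand per fragment (829 members), level calls were 8.32, 0.483 and 0.241%, mixed-share calls were 14.7, 0.483 and 0.362%, and members at 20 to 80% were 63.6% (population), 56.2% (clone 1) and 42.6% (both clones). There, CpG ranges were 50 points (clone 1) and 50 points (clone 2). With at least 20 molecules per clone and 10 on the even lines (674 members), level calls were 6.97% (clone 1 against population) and 5.34% (clone 2 against population), mixed-share calls were 10.2% (clone 1 against population) and 7.27% (clone 2 against population), and members at 20 to 80% were 72.7, 64.1, 62.5 and 47.5% (both clones). There, single-switch shares were 32.9, 32.8 and 32.6%. With 30 to 50% mixed in the rule (941 members), mean mixed shares were 50.7% (population), members at 20 to 80% were 71.1, 64.3, 62.9 and 48.6% (both clones), and single-switch shares were 33.5% (clone 1) and 32.3% (clone 2). With 30 to 70% methylated in the rule (803 members), mean mixed shares were 58.2% (clone 1) and 60.7% (clone 2), members at 20 to 80% were 87.4, 76.1, 75.6 and 62.1% (both clones), and pattern differences were 75.1, 58.7 and 58.4%. There, CpG ranges were 58.3 points (clone 1) and 60 points (clone 2). With mixed molecules needing 2 calls of each state in rule and measure (4237 members), mixed-share calls were 1.13% (clone 1 against population) and 0.897% (clone 2 against population), mean mixed shares were 33.5, 34.5 and 35.4%, and members at 20 to 80% were 75.9, 66.7, 66.2 and 50.8% (both clones). There, pattern differences were 75.2% (population), single-switch shares were 26.8, 24 and 24.6%, and CpG ranges were 50, 65.6 and 66.7 points. With the same need in the measure alone, mixed-share calls were 14.8, 0.687 and 0.74%, mean mixed shares were 22.9, 24.7 and 25.4%, and single-switch shares were 23.7, 23.3 and 22.6%. At 4 to 9 CpGs (1523 members), members at 20 to 80% were 65.7, 56.7, 55.8 and 39.4% (both clones), single-switch shares were 41.2, 41.2 and 40.2%, and CpG ranges were 52.1 points (clone 2). At 10 to 19 CpGs (369 members), level calls were 0.813% (clone 2 against population), mixed-share calls were 11.7, 2.17 and 1.36%, and mean mixed shares were 59.1% (clone 1) and 59% (clone 2). There, members at 20 to 80% were 81, 78.6, 77.2 and 67.5% (both clones), pattern differences were 67.1% (population), and single-switch shares were 15.8, 15.3 and 16.2%. There, CpG ranges were 63.6 points (clone 1) and 62.5 points (clone 2). Thinned to 10 molecules, level calls were 0.846, 0 and 0%, and mixed-share calls were 1.43, 0 and 0%. With at least 10 calls per CpG, CpG ranges were 28.6, 50.2 and 50 points. With molecules missing at most 1 call, added after seeing the data (1162 members), members at 20 to 80% were 64.5, 56.6, 56.8 and 40% (both clones), single-switch shares were 40.3, 40.5 and 39.6%, and CpG ranges were 35.4, 50 and 52.4 points. Calls depend on depth: fewer molecules per fragment, from either filter or thinning, left fewer calls, and a higher minimum more. Of the 310 values under alternatives, 188 stayed close to the value reported. For calls, close meant within 1.5 times the percentage reported. Other values were set against a Wilson interval computed as if each were a share of the 1892 members. For means, medians and ranges this is a yardstick of closeness and not their error.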
